A study of Oryctolagus cuniculus with 6 samples.

Results

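The genes described here are 10 components of the Notch pathway, taken by name as receptors, ligands and targets of the pathway in corneal epithelium: the receptors NOTCH1, NOTCH2 and NOTCH3, the ligands JAG1, JAG2 and DLL1, the glycosyltransferase LFNG, the DNA-binding factor RBPJ, and the target genes HES1 and HEY1. All 10 were among the 22190 genes of the table, and all 10 passed the filter on low counts with 15029 genes in all. Poly(A) RNA had been sequenced from primary limbal stem cells (LSCs), the epithelial cells that renew the cornea, which grew out of rabbit limbal explants in keratinocyte medium. The fresh group held 3 libraries from explants of fresh corneas, with no storage and no added cytokine. The preconditioned group held 3 libraries from explants of corneas kept in liquid nitrogen for 1 week in a freezing medium with fetal bovine serum, dimethyl sulfoxide and 10 ng/mL IL-1β, an inflammatory cytokine. Freezing, the medium and IL-1β were applied together and cannot be told apart in these libraries. The strain, age and donor animal of each library are not given in the sources used here, so that p values measure only the spread between these samples.

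Notch signaling passes between neighbouring cells. A Jagged or Delta-like ligand on one cell binds a Notch receptor on another, the receptor is cleaved by an ADAM protease and then by the γ-secretase complex, and the released intracellular domain enters the nucleus, where it joins RBPJ and a Mastermind-like co-activator on target genes such as those of the HES and HEY families. Fringe enzymes such as LFNG add sugars to the receptor and change which ligands it answers to. In stratified epithelia including that of the cornea, the pathway is known for its part in the choice between the basal, proliferating state and differentiation.

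Each library had 31952352 to 34327534 counts on genes, and expression is given below either as CPM (counts scaled to library size by TMM) or, where genes are compared with each other, as the deposited FPKM, which is divided by gene length. On the first principal component of log2 CPM, which held 50.4% of the variance, preconditioned replicate 1 lay at 8.13, between the fresh libraries (−53.1 to −41.1) and the other preconditioned libraries (58.3 and 70.4). Of the epithelial markers, KRT5, a keratin of basal epithelium, was at 7337 to 11740 CPM over the 6 libraries. TP63, a transcription factor of the limbal basal layer, was at 112 to 246 CPM. KRT15, another epithelial keratin, was at only 0.988 to 9.71 CPM, and the stromal marker VIM was at 240 to 735 CPM. These markers alone do not settle the identity of the cells. KRT14 and KRT12 were not analysed here.

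The 10 genes spanned a wide range of levels, and their order was led by a ligand. In the fresh group, JAG1 had the highest level at 64.9 ± 1.75 FPKM (SD, n = 3), above the level of 91.8% of all tested genes. JAG2 followed at 42.9 ± 2.53 FPKM, HES1 at 36.5 ± 5.67 FPKM and NOTCH3 at 30.0 ± 4.17 FPKM. DLL1, NOTCH1, NOTCH2 and RBPJ lay close together, between 11.9 and 16.8 FPKM on average, and neighbours among these 4 overlapped in their library ranges. LFNG had 8.30 ± 1.296 FPKM, and HEY1 was the lowest at 1.56 ± 0.992 FPKM, above only 29.4% of tested genes. Ranges of HES1 and NOTCH3 also overlapped, whereas JAG1 and JAG2, JAG2 and HES1, NOTCH3 and DLL1, RBPJ and LFNG, and LFNG and HEY1 were separated by their ranges. In the preconditioned group, JAG1 was again highest at 58.1 ± 7.58 FPKM and HEY1 again lowest, above 35.8% of tested genes. NOTCH1 stood after NOTCH2 and RBPJ there, at 9.99 ± 1.13 FPKM, and its range was separate from that of NOTCH2 but overlapped that of RBPJ. JAG2, NOTCH3 and HES1 overlapped as neighbours there at 27.2 to 30.4 FPKM on average, and LFNG overlapped HEY1.

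**Figure D1:**
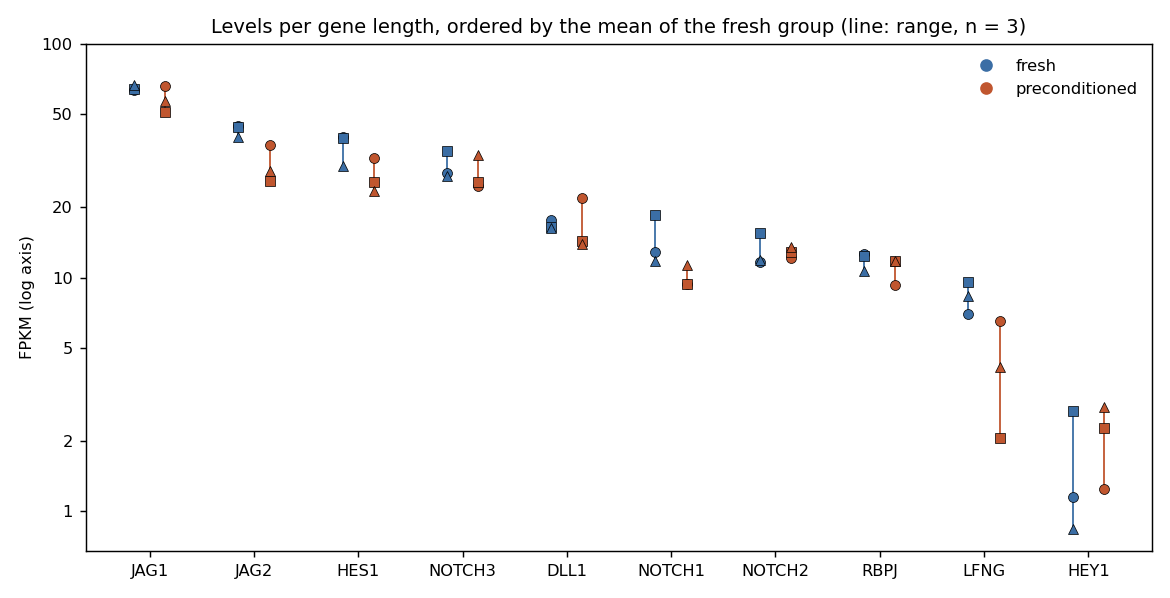
Deposited FPKM (log axis) of the 10 Notch pathway genes in each library, ordered by the mean of the fresh group, with circles, squares and triangles for replicates 1, 2 and 3 and a line for the range of each group. JAG1 stands at the top in both groups and HEY1 at the bottom, and the preconditioned points of LFNG are spread from 2.06 to 6.49 FPKM.

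The comparison of the preconditioned with the fresh group asks whether this signaling system was expressed differently in cells that grew from pretreated tissue. None of the 10 genes passed edgeR's quasi-likelihood test at the cutoffs named in the study's methods (adjusted p not above 0.05, change of 2-fold or more), where 2.29% of all tested genes did. None had an adjusted p of at most 0.05 without the fold cutoff either (5.08% of all tested genes), 1 of the 10 (JAG2) had an unadjusted p below 0.05 (30.6% of all tested genes), and DESeq2 also called 0 of the 10 (7.78% of the genes it tested), with LFNG alone at an unadjusted p below 0.05. The log2 fold changes (preconditioned minus fresh) were negative for NOTCH1, JAG2, LFNG and HES1 and positive for the other 6, of which NOTCH2, NOTCH3, JAG1 and RBPJ turned negative when libraries were scaled by size alone and DLL1 in FPKM, with a median of 0.030 beside 0.0071 over all tested genes. Their median size without regard to sign was 0.21, beside 0.37 over all tested genes, which were not matched to the 10 in level. The precision allows a bound to be given, since the 95% interval of the log2 fold change lay within a 2-fold change in either direction for 8 of the 10 genes. The exceptions were LFNG and HEY1. In CPM, the groups overlapped for all 10 genes, whereas 36.7% of all tested genes had groups that did not overlap. In FPKM, which carries no TMM scaling, the groups of NOTCH1, JAG2 and LFNG did not overlap and all 3 were lower in the preconditioned group (38.8% of all tested genes did not overlap on that scale, and 28.3% were lower without overlap).

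**Figure D2:**
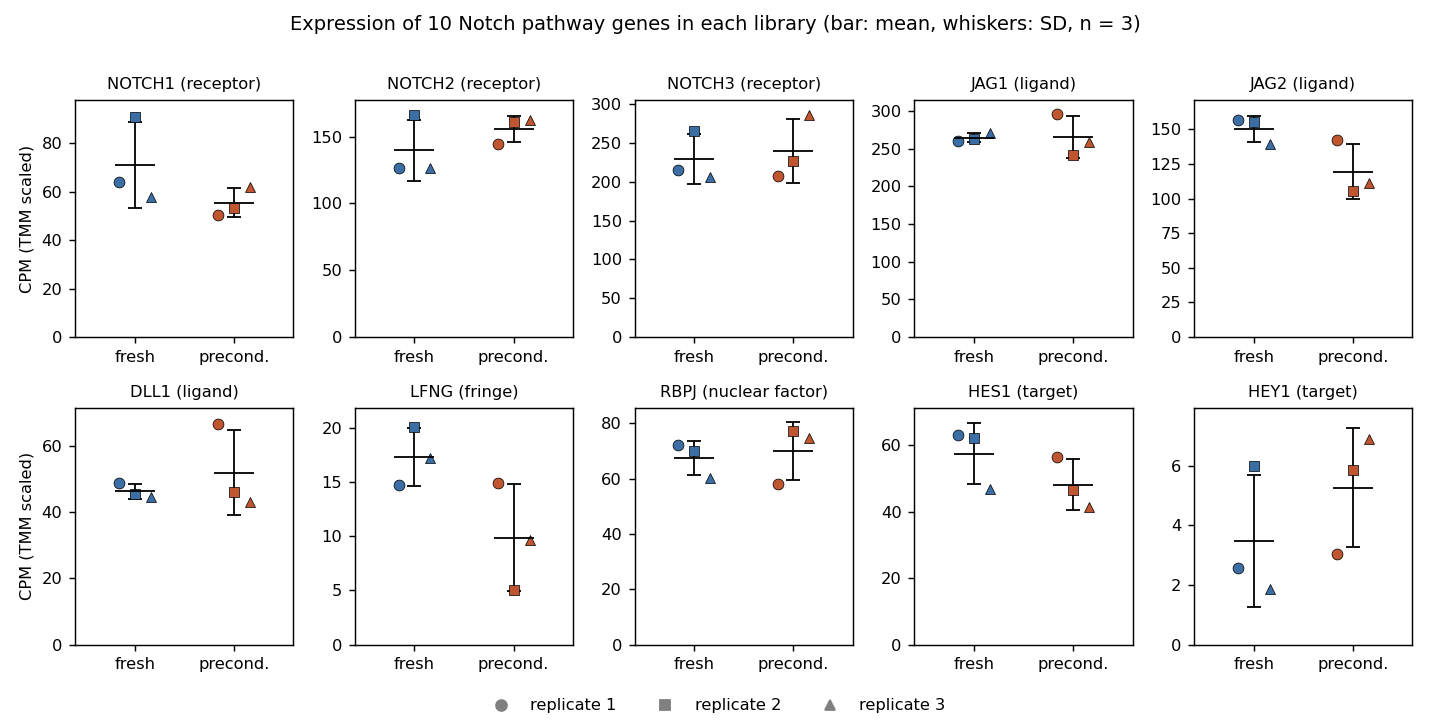
CPM after TMM scaling of each of the 10 genes in the 3 fresh (blue) and 3 preconditioned (orange) libraries, with the mean as a bar and the SD as whiskers. The groups overlap in every panel, and for LFNG only preconditioned replicate 1, at 14.9 CPM, reaches the fresh range.

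Of the receptors, NOTCH1 (gene ID 127482719), the receptor best known for its part in keratinocyte differentiation, had 63.9, 91.0 and 57.7 CPM in the fresh libraries and 50.5, 53.4 and 62.0 CPM in the preconditioned libraries. Of the preconditioned libraries, replicate 3 lay inside the fresh range and the others below it, and fresh replicate 2 stood above all others. The log2 fold change was −0.36 (standard error 0.19, 95% interval −0.80 to 0.083, adjusted p = 0.24 by edgeR), and it was −0.14 without fresh replicate 2. NOTCH2 (gene ID 100343819), a second receptor of epithelial cells, had 126, 166 and 127 CPM in fresh cells and 144, 161 and 162 CPM in preconditioned cells. All preconditioned values of NOTCH2 fell inside the fresh range, and the log2 fold change was 0.16 (95% interval −0.17 to 0.48, adjusted p = 0.48). NOTCH3 (gene ID 100352722), here the receptor with the highest FPKM and outside the epithelium a receptor of mural cells of blood vessels, had 216, 266 and 207 CPM in fresh cells and 208, 226 and 286 CPM in preconditioned cells. Only preconditioned replicate 3 of NOTCH3 lay outside the fresh range, above it, and the log2 fold change was 0.066 (95% interval −0.31 to 0.45, adjusted p = 0.81).

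Of the ligands, JAG1 (gene ID 100339551), a Jagged ligand, had the smallest log2 fold change of the 10 genes. It had 260, 262 and 271 CPM in the fresh libraries and 296, 242 and 259 CPM in the preconditioned libraries, so that the preconditioned values lay on both sides of the fresh ones. Its log2 fold change was 0.0060 (standard error 0.11, 95% interval −0.26 to 0.27, adjusted p = 0.98 by edgeR). JAG2 (gene ID 127482760), the other Jagged ligand, had 157, 155 and 139 CPM in fresh cells and 142, 105 and 111 CPM in preconditioned cells. Preconditioned replicate 1 of JAG2 lay inside the fresh range, while the other preconditioned libraries were below it. The log2 fold change of JAG2 was −0.33 (standard error 0.14, 95% interval −0.66 to −0.0027, unadjusted p = 0.049, adjusted p = 0.16). Without preconditioned replicate 1 it was −0.49, with an adjusted p of 0.021 that passed the limit on p but not the fold cutoff. That fit was more permissive over all genes, with 1546 of 15473 past both cutoffs beside 344 of 15029 with all 6 libraries. DLL1 (gene ID 100344124), a Delta-like ligand, had 48.9, 45.4 and 44.7 CPM in fresh cells and 66.8, 46.1 and 43.1 CPM in preconditioned cells. A single library, preconditioned replicate 1, stood above the rest, and the log2 fold change of 0.17 (95% interval −0.25 to 0.58, adjusted p = 0.56) turned to −0.066 without it.

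LFNG (gene ID 100355921), the fringe enzyme, had the largest negative log2 fold change of the 10 genes and the widest spread in the preconditioned group. It had 14.7, 20.03 and 17.2 CPM in the fresh libraries and 14.9, 4.99 and 9.68 CPM in the preconditioned libraries, so that the highest preconditioned value was 2.98 times the lowest, beside 1.36 times in the fresh group. Preconditioned replicate 1 lay just inside the fresh range, and the other preconditioned libraries lay well below it. The log2 fold change was −0.81 (standard error 0.37, 95% interval −1.69 to 0.064, adjusted p = 0.19 by edgeR). Without preconditioned replicate 1 it was −1.25 with an adjusted p of 0.033, past both cutoffs, and without preconditioned replicate 2 it was −0.49. In the fit without preconditioned replicate 1, 1546 of 15473 tested genes passed both cutoffs, beside 344 of 15029 with all 6 libraries. RBPJ (gene ID 100346517), through which the cleaved receptors act on DNA, had 72.0, 70.1 and 60.2 CPM in fresh cells and 58.1, 77.4 and 74.5 CPM in preconditioned cells. The preconditioned values of RBPJ lay on both sides of the fresh range, and the log2 fold change was 0.053 (95% interval −0.28 to 0.39, adjusted p = 0.83).

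The targets HES1 and HEY1 encode repressors of the basic helix-loop-helix type. HES1 (gene ID 100358704) had 63.2, 62.3 and 46.9 CPM in the fresh libraries and 56.5, 46.7 and 41.3 CPM in the preconditioned libraries. Only preconditioned replicate 1 of HES1 lay inside the fresh range, the others below it, and the log2 fold change was −0.25 (standard error 0.17, 95% interval −0.65 to 0.14, adjusted p = 0.34 by edgeR). HEY1 (gene ID 100344717) had 2.58, 5.99 and 1.86 CPM in fresh cells and 3.04, 5.85 and 6.91 CPM in preconditioned cells, from 68 to 213 counts per library. The highest fresh value of HEY1 was 3.22 times the lowest, and only preconditioned replicate 3 lay outside the fresh range. The log2 fold change of HEY1 was 0.60 (standard error 0.51, 95% interval −0.60 to 1.79, adjusted p = 0.45), and it was 1.24 (adjusted p = 0.21) without fresh replicate 2. The exact, 2-sided permutation test on log2 CPM gave p of 0.2 for NOTCH1, JAG2, LFNG and HES1 and 0.3 to 1 for the other 6 genes, and the smallest p that 3 libraries against 3 allow is 0.1.

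The balance among the receptors and among the ligands was also taken within each library, where the scaling of libraries drops out, and compared with the exact permutation test, whose p cannot go below 0.1 here. These ratios were examined after the values of the genes had been seen, and all 7 pairs of genes with the same role were taken. NOTCH1 made up 24.5%, 26.9% and 23.2% of the summed FPKM of the 3 receptors in the fresh libraries and 20.2%, 19.6% and 19.3% in the preconditioned libraries. The NOTCH1 share was therefore lower in every preconditioned library than in any fresh library (exact permutation p = 0.1, the smallest possible), while the shares of NOTCH2 (22.6% and 25.5% on average) and NOTCH3 (52.5% and 54.8%) overlapped. The log2 ratio of NOTCH1 to NOTCH2 was 0.13 ± 0.13 (SD, n = 3) in fresh cells and −0.37 ± 0.10 in preconditioned cells, a difference of −0.50. The log2 ratio of NOTCH1 to NOTCH3 differed by −0.40, again without overlap, and that of NOTCH2 to NOTCH3 differed by 0.10 with overlapping groups.

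Among the ligands, JAG2 held 35.4%, 35.4% and 32.5% of the summed FPKM of JAG1, JAG2 and DLL1 in the fresh libraries and 29.6%, 28.3% and 28.6% in the preconditioned libraries. The JAG1 share overlapped, at 52.1% and 55.4% on average. The JAG2 groups did not overlap (exact permutation p = 0.1). The DLL1 share was barely separate and higher, from 13.1% to 13.99% in fresh cells against 14.06% to 17.6% in preconditioned cells. Shares of the same sum are not independent, and the FPKM of DLL1 itself averaged 16.75 in fresh and 16.77 in preconditioned cells. The log2 ratio of JAG1 to JAG2 was 0.60 ± 0.12 (SD, n = 3) in fresh cells and 0.94 ± 0.088 in preconditioned cells, a difference of 0.34. The log2 ratio of JAG2 to DLL1 differed by −0.48 without overlap, and that of JAG1 to DLL1 by −0.14 with overlap. HES1 and HEY1 had overlapping ratios, with a difference of −0.95 that came with a SD of 0.73 and 0.85 in the groups. In all, 4 of the 7 pairs did not overlap. Over all pairs of tested genes with counts in every library, 33.5% did not overlap, and the 7 pairs share genes with each other, so that the count is only a description. The summed FPKM of the receptors was 57.4 ± 9.87 in the fresh and 50.8 ± 6.63 in the preconditioned group, and that of the ligands 124.6 ± 1.302 and 105.3 ± 17.6, with overlap in both cases.

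**Figure D3:**
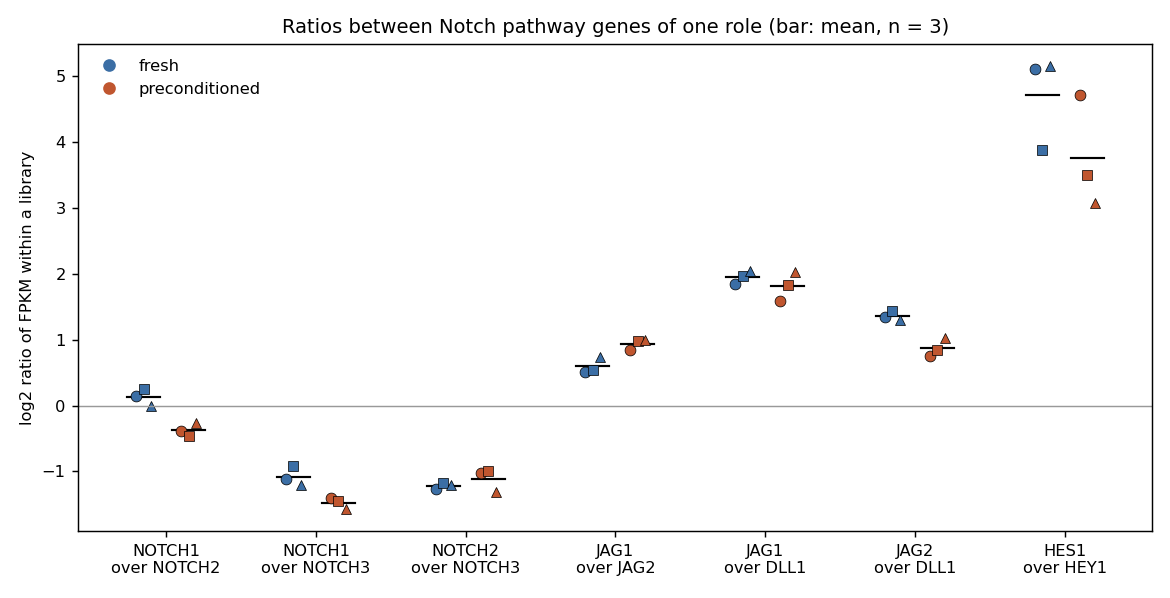
Log2 ratio of FPKM between pairs of Notch pathway genes with the same role, taken within each library, with circles, squares and triangles for replicates 1, 2 and 3 and a bar for the mean of each group. The preconditioned points of NOTCH1 over NOTCH2 lie below 0 while the fresh points lie near or above it, and those of JAG1 over JAG2 lie above all fresh points.

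Which library was highest or lowest differed from gene to gene. Preconditioned replicate 1 had the highest CPM of its group for 5 genes, JAG1, JAG2, DLL1, LFNG and HES1, and the lowest for the other 5, NOTCH1, NOTCH2, NOTCH3, RBPJ and HEY1. It was thus the highest or lowest of its group for all 10 genes, beside 78.9% of all tested genes. Preconditioned replicate 3 was the highest for all 3 receptors and HEY1, and fresh replicate 2 was the highest of the fresh group for all 3 receptors, LFNG and HEY1. Of the 10 genes, 6 lay inside the fresh range in preconditioned replicate 1, 4 in preconditioned replicate 2 and 2 in preconditioned replicate 3, beside 34.4%, 24% and 24% of all tested genes.

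The other genes of the pathway were taken from a list of 62 genes grouped by role, of which 53 were found in the table by symbol and 48 passed the filter. Of these 48, 1 passed both cutoffs (2.29% of all tested genes) and it was lower in preconditioned cells (1.2% of all tested genes were lower by this rule), while 4 had an adjusted p of at most 0.05 without the fold cutoff, all of them lower (2.2% of all tested genes). An unadjusted p below 0.05 by edgeR was reached by 21 of the 48 (43.8%, beside 30.6% of all tested genes). Of these, 17 were lower, a class that held 15.1% of all tested genes. The median log2 fold change of the 48 genes was −0.084, beside 0.0071 over all tested genes, and 30 of the 48 had a negative value (62.5%, beside 49.5%). Without overlap between the groups were 22 of the 48 genes (45.8%, beside 36.7%), 17 of them lower and 5 higher (18.8% and 17.9% of all tested genes). A wider list, the genes whose deposited Gene Ontology terms name the Notch signaling pathway, was split about evenly. It held 95 tested genes, some of them among those above, with 47 positive and 48 negative log2 fold changes, a median of −0.024, and groups without overlap for 14 higher and 13 lower genes. DLK2 and MDK, which encodes the growth factor midkine, were the 2 genes of that list past both cutoffs, and both were lower. Without the fold cutoff 3 of its 95 tested genes passed, beside 5.08% of all tested genes. The third was PERP, a gene of desmosomes, which was higher (log2 fold change 0.68, adjusted p = 0.039 by edgeR).

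DLK2, a non-canonical relative of the Delta-like ligands that lacks the domain by which the canonical ligands activate Notch, was the gene that fell. It had 13.9, 18.6 and 12.8 CPM in the fresh libraries and 5.69, 3.20 and 6.45 CPM in the preconditioned libraries. Every preconditioned library lay below every fresh library, and the log2 fold change was −1.56 (standard error 0.30, 95% interval −2.28 to −0.85, adjusted p = 0.041 by edgeR). The adjusted p of DLK2 ranged from 5.8e-05 to 0.15 over the alternatives and was above 0.05 without any 1 of the libraries except preconditioned replicate 1. With replicate number as a block in edgeR it was 0.10. DLL3, a ligand that does not activate Notch in neighbours, averaged 0.273 ± 0.0745 CPM in fresh and 0.279 ± 0.168 CPM in preconditioned cells (SD over 3 libraries), with a log2 fold change of 0.026 (adjusted p = 0.98), and DLL4, the ligand of endothelial cells, had at most 5 counts in any library.

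Among the 8 co-activators, 7 had a negative log2 fold change, and 3 of them had an adjusted p of at most 0.05 without reaching the fold cutoff, beside 49.5% and 2.2% of all tested genes that were negative and lower at that limit. CREBBP, a histone acetyltransferase, had 60.5, 73.0 and 82.7 CPM in fresh cells and 49.9, 34.7 and 35.9 CPM in preconditioned cells (log2 fold change −0.84, standard error 0.18, adjusted p = 0.049 by edgeR). EP300, its close relative, had 124, 141 and 154 CPM in fresh cells and 102, 93.5 and 88.4 CPM in preconditioned cells (log2 fold change −0.56, adjusted p = 0.048). KAT2A, also an acetyltransferase, had 27.6, 29.8 and 35.1 CPM in fresh cells and 20.4, 19.1 and 17.3 CPM in preconditioned cells (log2 fold change −0.70, adjusted p = 0.046). All 3 are general co-activators that serve many other pathways, and their groups did not overlap. Their adjusted p values were above 0.05 without any 1 of the libraries except preconditioned replicate 1, and reached 0.16 to 0.17 at most. With replicate number as a block in edgeR they were also above 0.05, at 0.11 to 0.12. KAT2B, the paralog of KAT2A, had the only positive value of the 8, with 37.2 ± 2.62 CPM in fresh and 53.1 ± 9.73 CPM in preconditioned cells (SD over 3 libraries, log2 fold change 0.52, adjusted p = 0.085). The Mastermind-like genes, whose products bind the intracellular domain itself, had log2 fold changes of −0.48 for MAML1, −0.67 for MAML2 and −0.42 for MAML3 (adjusted p of 0.090, 0.075 and 0.55).

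By edgeR, no gene of the other roles had an adjusted p of at most 0.05, whereas DESeq2, which called 7.78% of the genes it tested, called DTX3L among them. Of the proteases that cleave Notch, ADAM10 was at 237 ± 6.96 CPM in fresh and 240 ± 18.9 CPM in preconditioned cells (SD over 3 libraries), and the values ran from −0.50 for PSEN2 (adjusted p = 0.078) to 0.38 for PSENEN (adjusted p = 0.092), both of them subunits of γ-secretase. MIB2, a ubiquitin ligase that promotes the uptake of ligands, had 15.97, 15.95 and 18.1 CPM in the fresh libraries and 23.6, 26.1 and 32.3 CPM in the preconditioned libraries. Its groups did not overlap and its log2 fold change was 0.71 (adjusted p = 0.052 by edgeR), while NEURL1B, another ligase for ligands, was at −0.79 (adjusted p = 0.32). Of the glycosyltransferases, POGLUT1 was at −0.59 (adjusted p = 0.083) and EOGT at 0.13 (adjusted p = 0.40). Of the co-repressors, TLE4 was at −0.61 (adjusted p = 0.055) and CIR1 at 0.33 (adjusted p = 0.19). Of the inhibitors and genes of receptor turnover, DTX3L was at −1.40 with a standard error of 0.52 (adjusted p = 0.13 by edgeR and 0.020 by DESeq2) and DTX3 at 0.52 (adjusted p = 0.16). DTX3L was at −2.15 (adjusted p = 0.016 by edgeR) without preconditioned replicate 1, a fit in which 1546 of 15473 tested genes passed both cutoffs. Over the alternatives the adjusted p of DTX3L reached 0.31. NRARP, a feedback inhibitor that is itself a Notch target, had 149, 194 and 104 CPM in the fresh and 144, 167 and 128 CPM in the preconditioned group, and its log2 fold change was −0.025 (95% interval −0.56 to 0.51, adjusted p = 0.95). The other HES and HEY genes ran from −0.16 for HES6 (adjusted p = 0.63) to 0.95 for HEYL (adjusted p = 0.43), and HEYL was at most 1.22 CPM in any library.

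**Figure D4:**
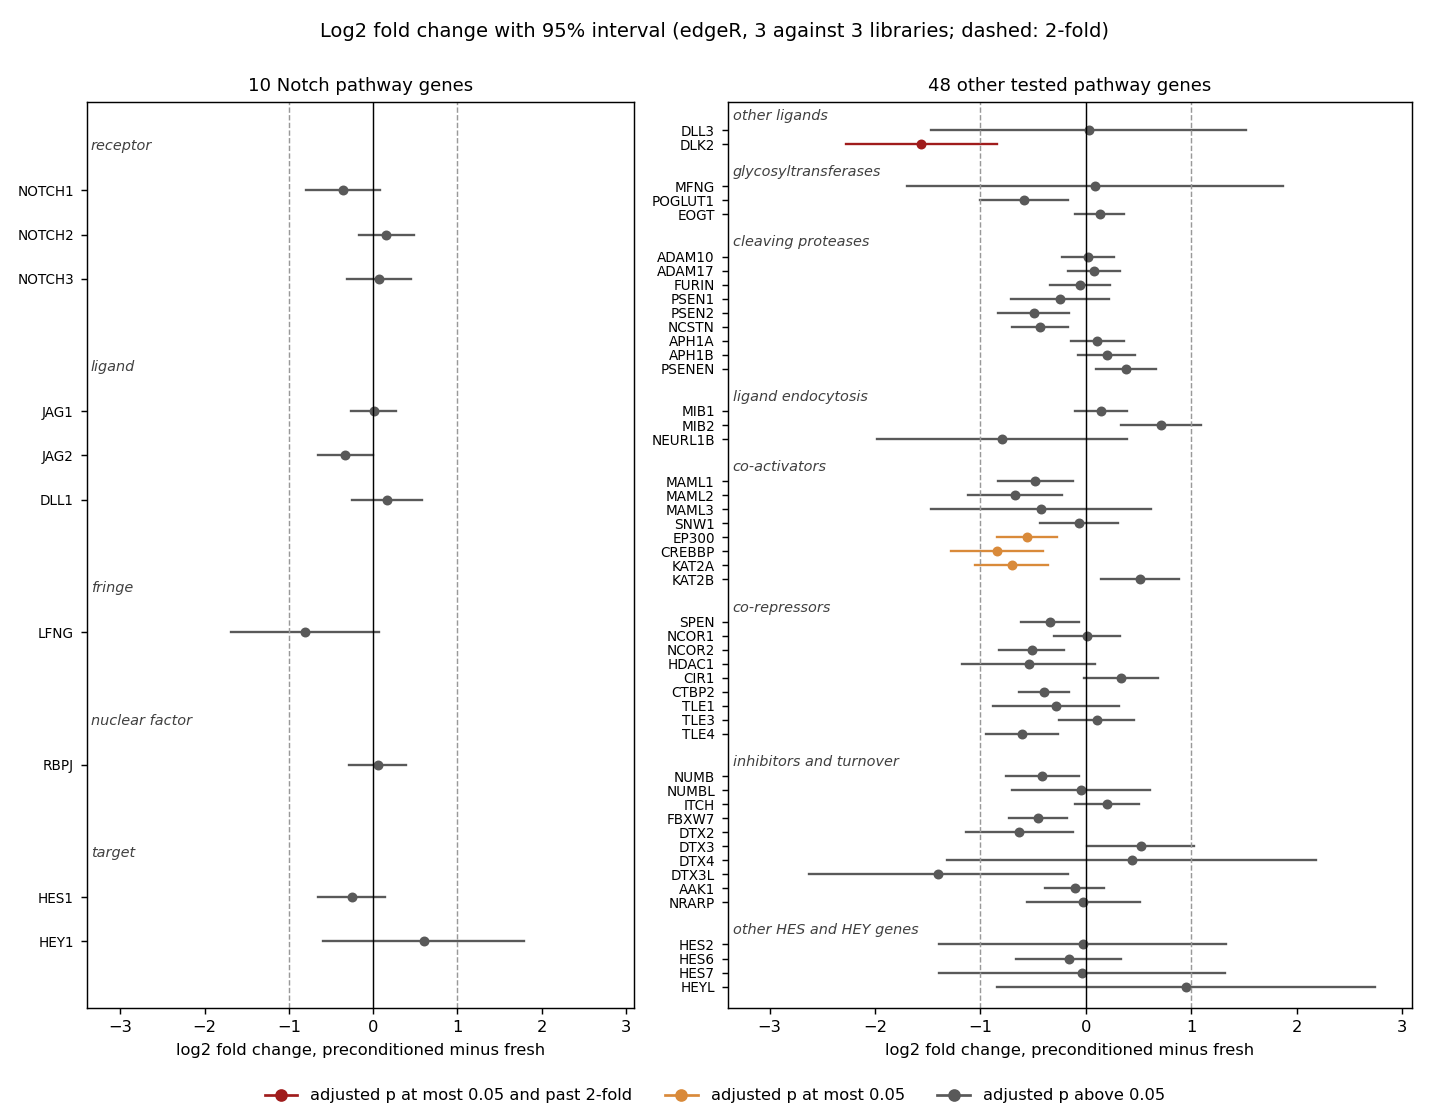
Log2 fold change (preconditioned minus fresh) with its 95% interval from edgeR for the 10 Notch pathway genes (left) and the 48 other tested pathway genes by role (right), with dashed lines at a 2-fold change. DLK2 at −1.56 is the one gene past both cutoffs, and CREBBP, EP300 and KAT2A are the others with an adjusted p of at most 0.05.

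Since these are bulk libraries, fewer cells of a type and less RNA per cell cannot be told apart. Markers of other cell types were summed per library to show what moved beside the Notch genes. The 10 stromal markers summed to 529 to 1144 CPM in the fresh group and 1299 to 2323 CPM in the preconditioned group, without overlap, and COL1A1 alone of them passed the test (log2 fold change 2.66, adjusted p = 0.015 by edgeR). Without COL1A1 the stromal sums overlapped, at 472 to 1036 CPM and 779 to 1630 CPM, and of the 10 genes 6 had a positive and 4 a negative log2 fold change, from −1.27 for KERA to 2.66 for COL1A1 with a median of 0.43. The 9 endothelial and mural markers summed to 12.2 to 20.7 CPM in the fresh and 23.4 to 63.7 CPM in the preconditioned group, and of these RGS5, a gene of mural cells, rose (0.956, 0.619 and 0.793 CPM against 54.3, 31.8 and 2.86 CPM, log2 fold change 5.23, adjusted p = 0.045). Without RGS5 these sums overlapped as well, at 11.4 to 19.8 CPM and 9.31 to 29.5 CPM. PECAM1 averaged 2.58 and 6.22 CPM (adjusted p = 0.32), and the 6 genes of that list that did not pass the filter, CDH5, VWF, KDR, TIE1, MCAM and DES, were at most 0.821 CPM in any library. VIM, of the stromal list, averaged 357 and 479 CPM (adjusted p = 0.50). The 7 epithelial markers found summed to 9758 to 13488 CPM and 9167 to 13502 CPM, and TP63 was lower without overlap, at 226 to 246 CPM against 112 to 183 CPM (log2 fold change −0.77, adjusted p = 0.059). EPCAM, also of that list, was higher without overlap (log2 fold change 0.50, adjusted p = 0.060), PAX6 was at 0.81 (adjusted p = 0.11), and KRT3, the keratin of differentiated corneal epithelium, was at −1.21 (1342 and 579 CPM on average, adjusted p = 0.30) with overlap. The immune markers overlapped (6.84 to 10.4 CPM and 5.73 to 23.2 CPM), with PTPRC at 0.339 and 0.691 CPM and CD74 at 0.440 and 1.085 CPM on average. The conjunctival markers overlapped too (2656 to 4692 CPM and 1911 to 4665 CPM). Most of these sums came from KRT19 (2739 and 2122 CPM on average) and KRT7 (755 and 900 CPM on average). KRT4 and KRT13, also of that list, had their highest values, 44.2 and 61.1 CPM, in preconditioned replicate 1. The suprabasal markers overlapped (112 to 288 CPM and 73.2 to 212 CPM), with KRT10 at 26.0 and 40.0 CPM on average (adjusted p = 0.061), higher without overlap. IVL, the largest part of that sum in the fresh group, averaged 157 and 69.4 CPM (log2 fold change −1.18, adjusted p = 0.40), and TGM1 averaged 11.3 and 23.5 CPM (adjusted p = 0.059), also higher without overlap. The melanocyte markers did not overlap (4.36 to 5.69 CPM and 2.59 to 3.79 CPM) and came mostly from MITF, with MLANA and TYR at most 0.0640 CPM. The part of any of these in the values of the Notch genes was not tested.

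The genes whose pattern over the 6 libraries was most like that of LFNG and HEY1, the pair with the largest absolute log2 fold changes, were looked up among 10965 tested genes with a symbol and at least 1 CPM on average. The measure was the root mean square difference of log2 CPM after each gene's mean was taken off. STYXL2 was nearest to LFNG at 0.099 on the log2 scale, followed by RBM46 at 0.15 and RPGRIP1L at 0.15. CLCN1 was nearest to HEY1 at 0.17, and ACSL1 was also near to it at 0.28. None of these neighbours is a component of the pathway as listed here, which says little, since few of the 10965 genes are.

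The estimates that moved over the widest range on the log2 scale when single libraries were left out were those of LFNG and HEY1. The log2 fold change of LFNG then ran from −1.25 to −0.49 and that of HEY1 from 0.29 to 1.24, whereas that of JAG1 ran from −0.090 to 0.071. That of HES1 was −0.40 without preconditioned replicate 1 and −0.15 without preconditioned replicate 3, and that of NOTCH2 was 0.30 without fresh replicate 2, 0.085 without fresh replicate 1 and 0.087 without fresh replicate 3.

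**Figure D5:**
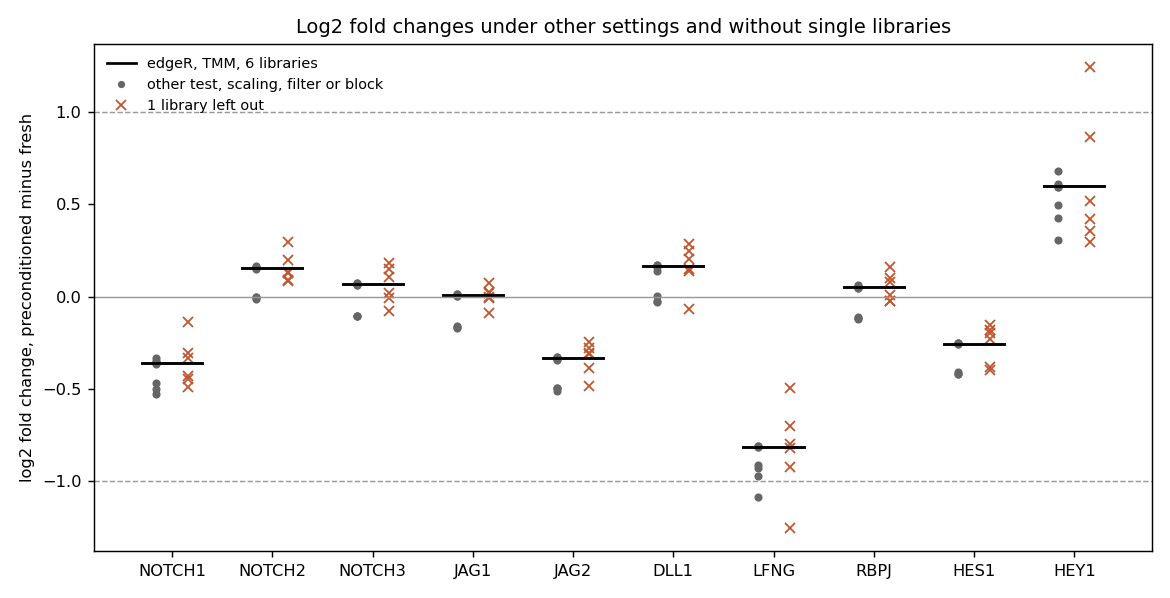
Log2 fold change (preconditioned minus fresh) of each of the 10 genes from edgeR with all 6 libraries (bar), under another test, scaling, filter or the replicate block (grey points) and without 1 library (crosses), with dashed lines at a 2-fold change. LFNG passes −1 on the log2 scale without preconditioned replicate 1 and under limma on log2(FPKM + 0.1), and HEY1 passes 1 without fresh replicate 2. The points of NOTCH2, NOTCH3, JAG1, DLL1 and RBPJ lie on both sides of 0.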

How the data were processed

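RNA-seq counts were analysed for 6 libraries of rabbit LSCs, 3 fresh and 3 preconditioned, grouped by their titles. Alignment by hisat2 and counting by htseq-count had been done by the authors, who deposited raw counts. The authors also deposited FPKM values, which are divided by library total and gene length. The genome build, annotation and strand setting are not given in the sources used here, and gene positions were therefore not used. All 10 NCBI gene identifiers were found in a RefSeq table of rabbit genes (mOryCun1.1). Sequences were not used here.

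Counts were filtered with filterByExpr, scaled by TMM and tested with the quasi-likelihood test of edgeR 4.0.16 in R 4.3.3, with condition as the only factor and Benjamini-Hochberg adjustment over 15029 genes. Standard errors and 95% intervals were derived from the F statistic. Library totals were 31952352 to 34327534 counts, and the standard errors cover counting error together with the spread between libraries. The study's methods name DESeq2, which was run as an alternative (1.42.0), with other scalings and filters, the replicate block, limma 3.58.1 on log2(FPKM + 1) and log2(FPKM + 0.1), and each library left out. The genes, lists and cutoffs were chosen with earlier results of these data known. Named genes are the 10 components, called pathway genes, the highest and lowest tested gene of each role, and called or leading markers. MAML1, MAML2, MAML3, ADAM10, NRARP, DLL4, KAT2B and the markers VWF, KDR, TIE1, MCAM, DES, MITF, KERA, EPCAM, PAX6, KRT3, KRT15, KRT7, KRT19, IVL and TGM1, the Gene Ontology list and the marker sums without COL1A1 or RGS5 were added after their values were seen. A gene that the likeness rule picks for HEY1 is not reported here.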

Additional observations from a re-analysis of the deposited data

How the results depend on the processing

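No alternative with all 6 libraries called any of the 10 genes, and the number called ran from 0 to 1 over the fits that lacked 1 library, with LFNG called without preconditioned replicate 1. The fit that called LFNG called 1546 of its 15473 tested genes. NOTCH1, JAG2, LFNG, HES1 and HEY1 kept their direction under all 14 alternatives. Scaling by library size alone moved the median over all genes tested (log2 fold change) from 0.0071 to −0.16, and limma on log2(FPKM + 1) and log2(FPKM + 0.1) moved it to −0.094 and −0.15. Under these 3 settings, in this order, the log2 fold change turned to −0.014, −0.0039 and −0.0035 for NOTCH2, to −0.10, −0.10 and −0.11 for NOTCH3, to −0.16, −0.17 and −0.17 for JAG1, and to −0.12, −0.11 and −0.12 for RBPJ, while DLL1 turned to −0.027 and −0.029 under limma only. Of the 140 values of the 10 genes under the 14 alternatives, 22 had the opposite sign, and 13 when each was taken relative to the median of all genes. Without single libraries, NOTCH3 ran from −0.077 to 0.18, JAG1 from −0.090 to 0.071, DLL1 from −0.066 to 0.29 and RBPJ from −0.025 to 0.16. The within-library ratios kept their direction in 42 of 42 comparisons without single libraries, an alternative added after the data were seen, but the differences with overlap moved in size, JAG1/DLL1 from −0.24 to −0.025, NOTCH2/NOTCH3 from 0.045 to 0.21 and HES1/HEY1 from −1.43 to −0.61.

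Of the other pathway genes, against 1 (DLK2), 2 were called with DESeq2 (DLK2 and DTX3L), 2 with library size alone and 2 with limma on log2(FPKM + 0.1) (both DLK2 and CREBBP), 4 without a fold cutoff, 0 with the replicate block, and 0 to 3 without single libraries. Over all tested genes, the main fit called 344 of 15029 (2.29%, 163 higher and 181 lower), and DESeq2 called 1190 of 15293 (7.78%). Of 15029 genes, library size alone called 565 (142 higher, 423 lower), limma on log2(FPKM + 0.1) 590 (141 higher, 449 lower) and on log2(FPKM + 1) 283 (77 higher, 206 lower). No fold cutoff gave 763 (5.08%) and the replicate block 30. Fits without single libraries called 14 to 1546, the most without preconditioned replicate 1. The causes were not tested. Libraries with the same replicate number did not deviate together (correlations of −0.067, −0.073 and −0.11 across genes), and 0 of the 6 correlated best with its own number. With 3 libraries in a group, this cannot show whether the numbers mark shared donors or batches. The block changed no call among the 10 genes, of which none was called without it. HEY1, with 68 to 213 counts, and the genes under 1 CPM are limited by depth as well as by spread.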
